A study of Mus musculus with 12 samples.

Results

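The 9 genes *Chat*, *Slc18a3*, *Slc5a7*, *Calca*, *Calcb*, *Isl1*, *Isl2*, *Phox2a* and *Prph* were followed across all 12 libraries, out of 54193 genes with a transcript in the deposited files. They were selected on their normalized counts in these same libraries, as genes of cholinergic and oculomotor neurons of which *Chat*, *Slc18a3*, *Slc5a7* and *Calcb* were very high in 1 hemizygous C57 library. Their levels in that library are therefore given as a description, with no test. RNA was sequenced from laser-captured substantia nigra pars compacta (SNpc) of 1-week-old mice, each library from 1 mouse, with 3 libraries per group. The groups were SwissOF1 (OF1) wild-type mice (OF1 WT: SW31, SW7 and SWG), SwissOF1 mice hemizygous for *Engrailed-1* (OF1-*En1*+/-: SW21, SW22 and SWB), C57Bl/6j wild-type mice (C57 WT: C5710, C572S and C5743) and C57Bl/6j mice hemizygous for *Engrailed-1* (C57-*En1*+/-: C5713, C572 and C575). *Engrailed-1* encodes a homeodomain transcription factor needed for midbrain dopaminergic neurons, and the hemizygous mice lack 1 of its copies in every cell of the body. The C57-*En1*+/- line was derived from the OF1 line by repeated backcrossing, and all mice were labelled male.

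Cholinergic neurons make acetylcholine in the cytoplasm and load it into synaptic vesicles, and after release they recover choline from the cleft. In the brainstem the motor neurons of the cranial nerves are cholinergic. Those of the oculomotor nucleus, which move the eye, lie near the midline of the midbrain, dorsal to the ventral tegmental area, and send their axons ventrally, past the medial border of the substantia nigra. Motor neurons also make the peptide CGRP, the intermediate filament peripherin, and transcription factors of the Islet and Phox2 families, of which Phox2a is needed for the oculomotor and trochlear nuclei to form.

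The libraries held 13538864 to 168741283 estimated reads, and 3 reads corresponded to a normalized count between 0.617 and 7.08. Mouse C572, which carried the high levels described here, also went against its label as a male. Its *Xist*, a transcript made from inactive X chromosomes, was at a normalized count of 1331 against 0 to 34.9 in the other 11 libraries, and *Ddx3y*, a gene of the Y chromosome, was at 0 against 749 to 2506. The targeted gene *En1* was at 9.41 in C572 and at 0 to 15.2 in 9 of the other libraries, and it reached 691 in SW22 and 1071 in C572S, so it gave no check of the genotype labels. Markers of dopaminergic neurons, the cells that define the SNpc, were uneven. Levels were summed over 9 of them in TPM, which is scaled for transcript length and depth. The sum was 6710 TPM in SW22 and 9925 TPM in C572S, and only 25.2 to 146 TPM in all other libraries. *Slc6a3*, the dopamine transporter, had 4 reads in C572, and over all other libraries its normalized count ran from 14.6 to 350647 with a median of 30.4. In bulk tissue such as this, fewer cells of a type and less RNA per cell cannot be told apart.

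*Chat* encodes choline acetyltransferase, which makes acetylcholine, *Slc18a3* encodes the transporter that loads it into vesicles, and *Slc5a7* encodes the high-affinity choline transporter of the nerve terminal. *Chat* (ENSMUSG00000021919) spans chr14:32129369-32187946 on the minus strand of GRCm39, and *Slc18a3* (ENSMUSG00000100241), at chr14:32184395-32186807 on the same strand, is a gene of 1 exon that lies wholly inside intron 1 of the 16-exon transcript Chat-201 (chr14:32182871-32187763). No annotated *Chat* transcript had an exon over *Slc18a3*, so they share no annotated exonic base, while unspliced *Chat* RNA holds the *Slc18a3* sequence. *Slc5a7* (ENSMUSG00000023945) lies at chr17:54580020-54606076, minus strand. Since these genes were high together, the 250 bases before the RefSeq start of each are shown, on GRCm38.p6, 5′ to 3′ on the strand of the gene. Capitals mark matches on either strand to the motifs TAATTA (the core bound by many homeodomain proteins), TGACGTCA (the cyclic AMP response element), GGGCGG (a GC box) and CANNTG (an E-box).
Chat, chr14:32465910-32466159, minus strand: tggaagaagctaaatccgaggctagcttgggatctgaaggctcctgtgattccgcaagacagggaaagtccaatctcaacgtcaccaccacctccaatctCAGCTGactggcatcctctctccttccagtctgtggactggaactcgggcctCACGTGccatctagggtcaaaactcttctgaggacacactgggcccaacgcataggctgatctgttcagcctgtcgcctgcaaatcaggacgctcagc
Slc18a3, chr14:32464851-32465100, minus strand: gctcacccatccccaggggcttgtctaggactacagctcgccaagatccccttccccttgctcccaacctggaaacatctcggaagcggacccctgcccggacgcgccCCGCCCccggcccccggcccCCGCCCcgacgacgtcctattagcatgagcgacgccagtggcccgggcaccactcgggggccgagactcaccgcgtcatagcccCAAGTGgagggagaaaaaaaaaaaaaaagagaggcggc
Slc5a7, chr17:54299035-54299284, minus strand: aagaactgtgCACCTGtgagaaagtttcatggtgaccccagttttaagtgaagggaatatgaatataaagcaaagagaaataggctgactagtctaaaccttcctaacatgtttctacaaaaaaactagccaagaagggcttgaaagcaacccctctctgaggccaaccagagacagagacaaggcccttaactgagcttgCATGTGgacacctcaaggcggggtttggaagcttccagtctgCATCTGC
In windows of 300 bases, from 250 before the start to 50 after it, RefSeq entries were found for 8 of the 9 genes. E-boxes were in 6 of those 8 windows and in 72.3% of all 32851 windows, and GC boxes were in 4 (*Slc18a3*, *Phox2a*, *Prph* and *Isl2*) and in 35.7% of all. TGACGTCA was in the window of *Isl2* and in 1.79% of all, and TAATTA was in none of the 8 and in 5.29% of all. GC content was 55.7% for *Chat*, 67.0% for *Slc18a3* and 44.7% for *Slc5a7*, against a median of 52.7% over all windows. The windows of the cholinergic trio thus shared an E-box, a short motif that most promoter windows hold, and no other of the searched motifs.

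*Calca* and *Calcb* encode the α and β forms of calcitonin gene-related peptide (CGRP), a vasodilator peptide that motor neurons release with acetylcholine. They are neighbours on chromosome 7, at chr7:114230712-114235592 on the minus strand (*Calca*, ENSMUSG00000030669) and chr7:114317878-114322603 on the plus strand (*Calcb*, ENSMUSG00000030666), 82285 bases apart. The coding part of the exon that carries CGRP, exon 4 of 5 in Calca-201 and in Calcb-201, is shown on GRCm39, 5′ to 3′ on the strand of each gene, because reads are divided between the genes by their differences. Capitals mark bases that differ, and the run of 3 capitals in *Calcb* is a stretch with no partner in *Calca*, whose place within the repeat around it is arbitrary.
Calca, chr7:114231678-114231834, minus strand: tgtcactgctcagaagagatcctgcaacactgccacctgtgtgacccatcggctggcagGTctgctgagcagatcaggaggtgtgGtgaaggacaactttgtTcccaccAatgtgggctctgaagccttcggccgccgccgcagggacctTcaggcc
Calcb, chr7:114321210-114321369, plus strand: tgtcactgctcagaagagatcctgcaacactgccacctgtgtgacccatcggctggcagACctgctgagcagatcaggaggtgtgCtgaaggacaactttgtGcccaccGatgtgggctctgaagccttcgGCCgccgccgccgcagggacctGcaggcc
Of 157 aligned bases 151 (96.2%) were identical, with 6 differences, and the longest identical run was 59 bases. Over the whole transcripts of 994 and 962 bases, 3.43% of the 31-base words of Calcb-201 were also in Calca-201, and none of its 75-base words, the length of 1 read. How often a read was placed on the wrong gene of the pair was not measured. The certainty of small numbers of *Calcb* reads beside many *Calca* reads is therefore not known.

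Among OF1 WT libraries, *Chat* had a normalized count of 44.8 (SW31), 0 (SW7) and 190 (SWG), and among OF1-*En1*+/- libraries one of 17.6 (SW21), 44.2 (SW22) and 4.50 (SWB). The C57 WT libraries had 6.10 (C5710), 43.1 (C572S) and 40.3 (C5743), and the C57-*En1*+/- libraries 0 (C5713), 4093 (C572) and 6.86 (C575). C572 stood 21.6-fold above the next highest library, SWG, and held 91.2% of the normalized *Chat* counts of all 12 libraries, while 2 libraries had no *Chat* read.

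*Slc18a3* was at 9.44, 151 and 515 in OF1 WT mice and at 33.4, 48.8 and 18.0 in OF1-*En1*+/- mice, in the same order of libraries. It was at 118, 9.94 and 126 in C57 WT mice and at 171, 11871 and 34.3 in C57-*En1*+/- mice. C572 was again far above SWG, by 23.05-fold, and every library had at least 4 *Slc18a3* reads.

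*Slc5a7* was at 9.44, 55.0 and 447 in OF1 WT mice and at 204, 121 and 11.3 in OF1-*En1*+/- mice. It was at 148, 87.3 and 56.96 in C57 WT mice and at 117, 8142 and 69.5 in C57-*En1*+/- mice. SWG was the second highest library for the third time, 18.2-fold below C572, and outside these mice the values of the 4 groups ran into one another.

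The whole trio was thus high in C572 and next highest in SWG, but the genes did not keep a fixed ratio elsewhere. *Slc18a3* took 74.4% of the *Slc18a3* and *Chat* reads in C572 (95% Wilson interval 73.7 to 75.0%, counting error only), 73.1% (69.5 to 76.4%) in SWG and 75.8% (72.8 to 78.7%) in C5743. It took 18.8% (12.2 to 27.7%) in C572S and 100% (97.1 to 100%) in SW7, where 129 reads of *Slc18a3* came with 0 of *Chat*. Nearly all *Chat* reads (99.4% in C572) were placed on Chat-201, the full coding transcript. Of the *Slc5a7* reads of C572, 77.2% were placed on the coding transcript Slc5a7-201 and 22.8% on Slc5a7-202, which retains an intron, and the latter share ranged from 0 to 56.3% in the 9 other libraries with at least 20 *Slc5a7* reads.

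**Figure D1:**
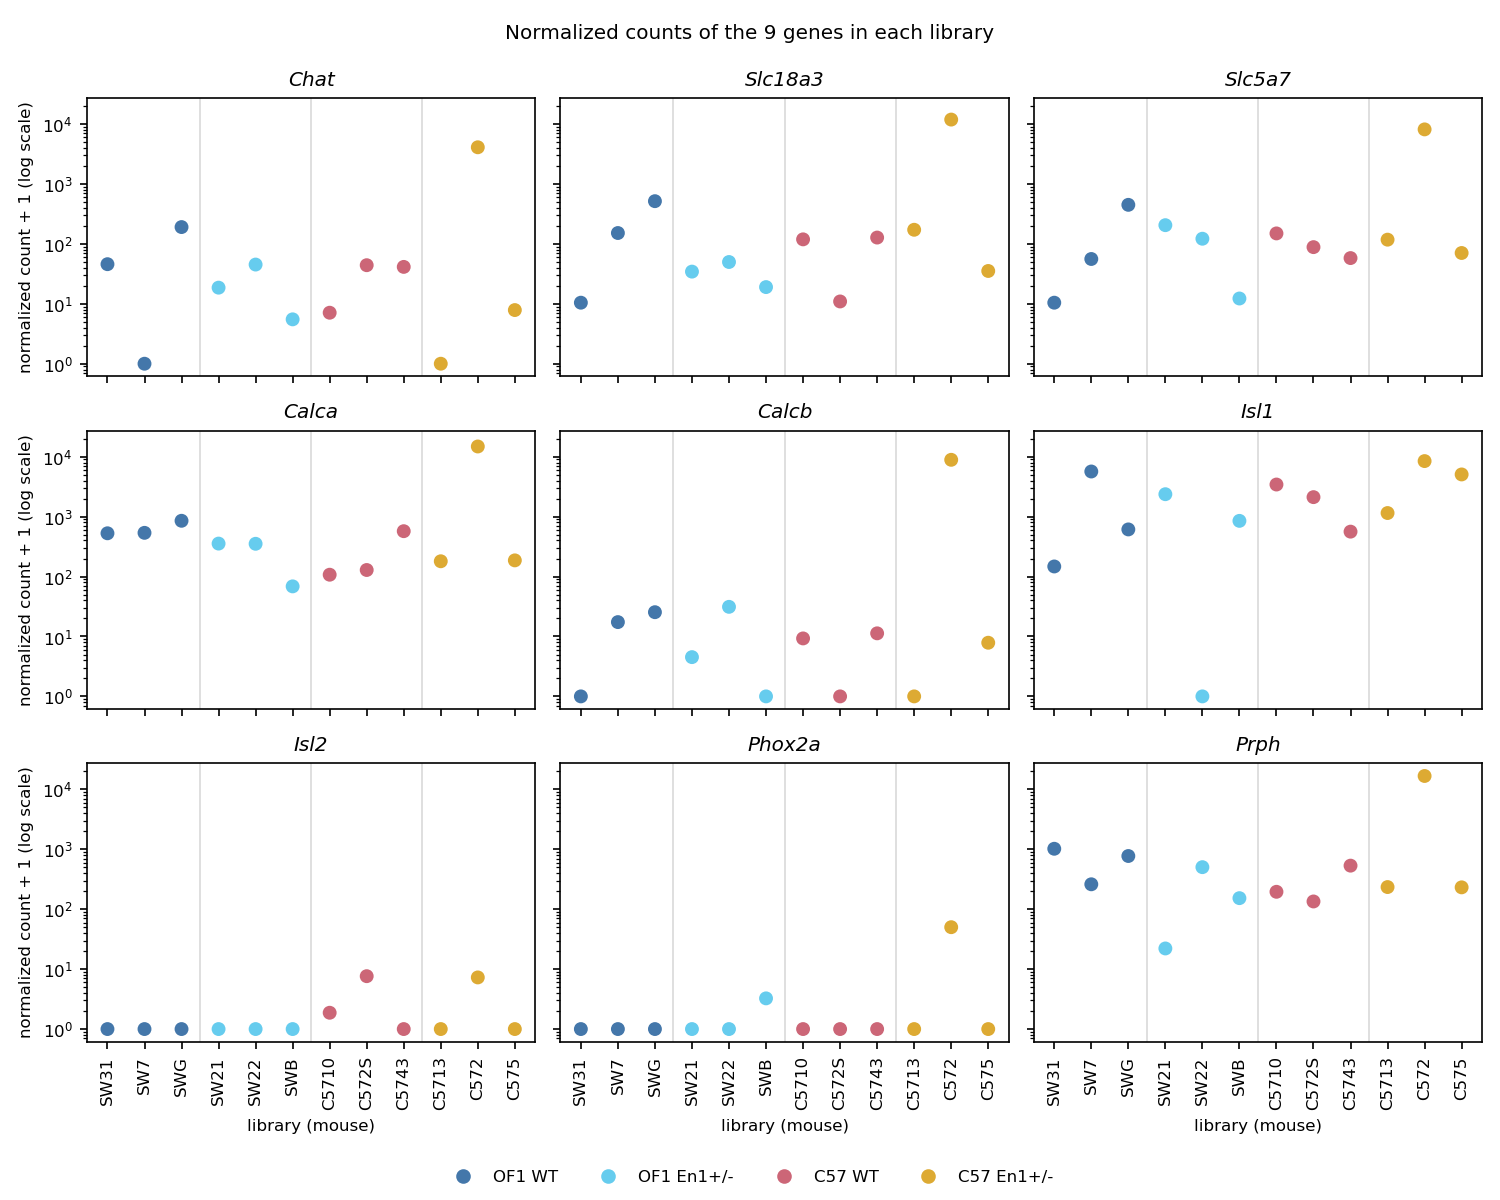
Normalized count plus 1 (log scale) of each of the 9 genes in the 12 libraries, 1 point per mouse, coloured by group. C572 is the highest point for 8 genes, and for *Isl1* the points of SW7 (5663) and C575 (5057) lie close below it (8450.0).

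*Calca* was the member with the highest level per transcript length in C572, at 677 TPM (a level scaled for transcript length and depth) against 3.56 to 47.7 in the other libraries. The OF1 WT libraries had normalized counts of 526, 536 and 852, and OF1-*En1*+/- ones 354, 351 and 67.5. The C57 WT libraries had 106, 128 and 571, and C57-*En1*+/- ones 179, 14814 and 185. *Calca* was read in every library, C572 was 17.4-fold above SWG, and the OF1 WT and OF1-*En1*+/- mice did not overlap. *Calca* also makes the hormone calcitonin, by ending in an alternative exon 4 (chr7:114232528-114233020), so its reads were split by exon. Transcripts with the CGRP exon (chr7:114231651-114231834) held 14173 of the reads of C572 and transcripts with the calcitonin exon 1.06. The calcitonin form was largest in C572S, at 16.6 reads beside 214 of the CGRP form, and the CGRP share was at least 92.8% in every library.

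*Calcb* was the member that separated C572 most. The OF1 WT libraries had normalized counts of 0, 16.4 and 24.4, and OF1-*En1*+/- ones 3.52, 30.2 and 0. The C57 WT libraries had 8.28, 0 and 10.3, and C57-*En1*+/- ones 0, 8878 and 6.86. C572 held 98.9% of the normalized *Calcb* counts and was 294-fold above the next library, SW22, which had 13 reads. *Calcb* made up 37.5% (36.8 to 38.1%) of the *Calca* and *Calcb* reads in C572, and 0 to 7.93% in the other 11. The next highest share, in SW22, had a Wilson interval of 4.69 to 13.1%. These intervals cover counting error within 1 mouse only. *Calcb* was chosen for its level in C572, so nothing is read from the distance between them. C5743, with 2775 *Calca* reads, the most after C572, had 50 of *Calcb*, a share of 1.77% (1.35 to 2.33%).

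**Figure D2:**
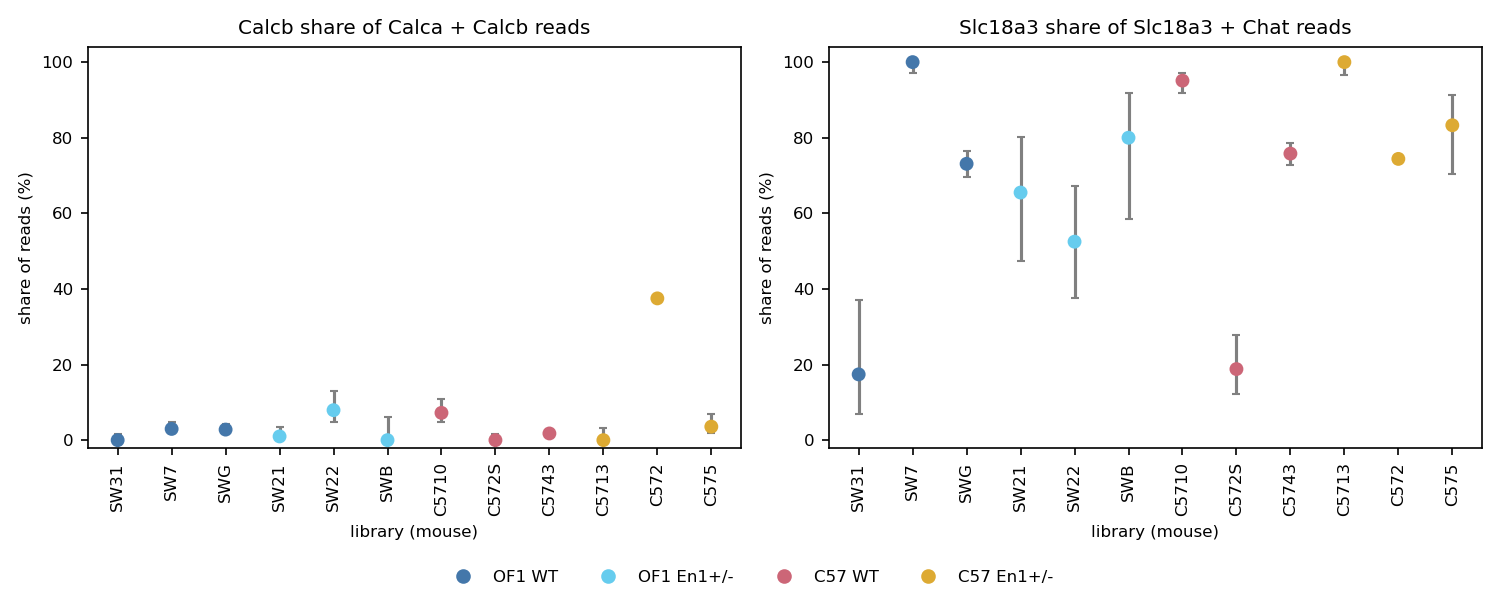
Share (%) of *Calcb* among *Calca* and *Calcb* reads (left) and of *Slc18a3* among *Slc18a3* and *Chat* reads (right) in each library, with 95% Wilson intervals that cover counting error only. The *Calcb* share is 37.5% in C572 and at most 7.93% elsewhere, while the *Slc18a3* share of C572 (74.4%) lies inside the range of the other libraries (17.4 to 100%).

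Among the transcription factors, *Isl1*, a LIM-homeodomain factor of motor neurons that is also used by sensory, striatal and hypothalamic neurons, did not follow the pattern. *Isl1* (ENSMUSG00000042258, chr13:116434817-116446235, minus strand) was at 146, 5663 and 611 in OF1 WT mice and at 2366, 0 and 849 in OF1-*En1*+/- mice. It was at 3432, 2114 and 561 in C57 WT mice and at 1147, 8450.0 and 5057 in C57-*En1*+/- mice. C572 was the highest library but only 1.49-fold above SW7, it held 27.8% of the normalized counts, and SW22 had no read. The SD of each group was 0.706 to 1.43 times its mean in the WT groups and 0.748 to 1.12 times in the hemizygous groups, so no neighbours in the order of the group means (C57-*En1*+/-, OF1 WT, C57 WT and OF1-*En1*+/-) differed beyond their spread.

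*Isl2* (ENSMUSG00000032318, chr9:55445956-55453464, plus strand), the second Islet factor of spinal and cranial motor neurons, was close to undetected. It had 12 reads in C572S, 6 in C572, 2 in C5710 and 0 in the other 9 libraries. *Phox2a* (ENSMUSG00000007946, chr7:101467514-101471933, plus strand) had 47 reads in C572, a normalized count of 49.1, then 2 reads in SWB and 0 in the other 10 libraries. The *Phox2a* reads of C572 lay on the coding transcript Phox2a-201 and those of SWB on a transcript that retains an intron. In C572 the level of *Phox2a* was 1.15 TPM and that of *Isl2* 0.157 TPM, against 146 TPM for *Isl1*, so of these factors only *Isl1* was abundant in the library where the cholinergic genes were high.

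*Prph* (ENSMUSG00000023484, chr15:98952872-98956862, plus strand) encodes peripherin, an intermediate filament of neurons with axons in the peripheral nerves. The OF1 WT libraries had normalized counts of 1019, 260 and 772, and OF1-*En1*+/- ones 21.1, 502 and 152. The C57 WT libraries had 194, 134 and 532, and C57-*En1*+/- ones 233, 16723 and 231. C572 was 16.4-fold above SW31 and held 80.5% of the normalized counts. The coding transcript Prph-201 held 93.6% of its reads in C572 and 82.4 to 96.8% in the 10 other libraries with at least 20 reads.

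In all, C572 had the highest level of 8 of the 9 genes, and 7 (all but *Isl1* and *Isl2*) were more than 4-fold above each of the other 11 libraries there. Since the genes were chosen for high levels in that library, nothing is read from this count. Of the 18017 genes tested, 99 (0.549%) were more than 4-fold above all other libraries in C572, and 3 to 53 were so in each of the other libraries. Ordered by TPM, the levels in C572 were 677 for *Calca*, 412 for *Prph*, 409 for *Calcb*, 174 for *Slc18a3*, 146 for *Isl1*, 55.7 for *Slc5a7* and 50.8 for *Chat*. In the other 11 libraries the medians were 19.9 TPM for *Calca*, 8.28 for *Prph*, 0.558 for *Calcb*, 0.932 for *Slc18a3*, 23.8 for *Isl1*, 0.845 for *Slc5a7* and 0.256 for *Chat*. SWG was second for 4 of the genes, and the second place of the other 5 fell to 5 different libraries.

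In C57 mice the difference between genotypes rested on C572, and no test was run on it. The mean log2 normalized count (prior 2) was higher in the hemizygous than in the WT group by 3.09 for *Calcb*, 2.89 for *Slc18a3*, 2.15 for *Slc5a7*, 2.00 for *Prph*, 1.99 for *Calca*, 1.56 for *Phox2a*, 1.20 for *Isl1* and 0.74 for *Chat*, and by -0.19 for *Isl2*. Without C572 the differences were -0.59 for *Calcb*, 0.48 for *Slc18a3*, -0.0072 for *Slc5a7*, -0.051 for *Prph*, -0.12 for *Calca*, 0 for *Phox2a*, 0.59 for *Isl1*, -2.56 for *Chat* and -0.88 for *Isl2*. In the other hemizygous mice 7 of the 9 genes in C5713 and 8 in C575 lay within the range of the C57 WT libraries. These counts include *Isl2* and *Phox2a*, which had 0 reads in both mice. The share of all genes within that range was not computed, so nothing is read from the counts. The C57 groups overlapped for all 9 genes, where 14.3% of all tested genes did not overlap. OF1-*En1*+/- and C57-*En1*+/- mice also overlapped for all 9 genes, where 13.2% of all tested genes did not. *Isl2* and *Phox2a* are in both counts of overlap but were not among the tested genes.

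The effect of *En1* hemizygosity in OF1 mice, which does not use C572 as a compared library, was tested with edgeR. *Isl2* and *Phox2a* were under the minimum mean normalized count of 10, so 7 members were tested. *Calcb* passed this filter only through C572, with a mean of 748.1 over all libraries and 9.09 without it. None was called in OF1-*En1*+/- against OF1 WT mice at a Benjamini-Hochberg adjusted p under 0.05, and none had an unadjusted p under 0.05 in this fit of 12 libraries. With the 6 compared libraries only, and likewise without C572, 1 of 6 tested members, *Slc18a3*, had an unadjusted p under 0.05, at a log2 fold change of -2.77 ± 1.15 (SE) and an adjusted p in edgeR of 0.512 in the former. The background was 0 of 18017 genes (0%) with edgeR, 1654 genes at an unadjusted p under 0.05, and 202 genes with DESeq2. At an unadjusted p under 0.05 it was 1586 of 16725 genes with the 6 compared libraries and 1888 of 18002 without C572. DESeq2 gave no adjusted p for 6 of the 7 members and did not call the remaining one, *Isl1*. The log2 fold changes were -2.82 ± 1.96 (SE) for *Slc18a3*, -1.92 ± 2.33 for *Chat*, -1.62 ± 1.56 for *Prph*, -1.32 ± 1.47 for *Calca*, -0.998 ± 1.58 for *Isl1*, -0.68 ± 2.82 for *Calcb* and -0.65 ± 1.73 for *Slc5a7*. The median of all tested genes was -0.017. The smallest adjusted p of a member in edgeR was 0.698, for *Slc18a3*. The trio shares its high OF1 WT library, SWG, and without it the log2 fold change of *Chat* was 0.046 and that of *Slc5a7* 1.67. *Calca* was the only member whose OF1 groups did not overlap, at 526 to 852 in WT and 67.5 to 354 in hemizygous mice, beside 15.7% of all tested genes. Without C572 the log2 fold change of *Calca* was -1.31 ± 0.7002 and its adjusted p in edgeR 0.544.

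Between the WT strains the question is what the backgrounds differ in before any neurodegeneration. None of the 7 members was called in OF1 WT against C57 WT mice, with none at an unadjusted p under 0.05, beside 185 of 18017 genes (1.03%) with edgeR. *Calcb* was among the 7 only through C572, and at 0 to 24.4 in the compared libraries its result says little. DESeq2 called 456 genes, gave no adjusted p for 6 of the members and did not call *Isl1*. The log2 fold changes were 1.42 ± 1.75 (SE) for *Slc18a3*, 1.40 ± 2.15 for *Chat*, 1.25 ± 1.44 for *Calca*, 1.24 ± 1.52 for *Prph*, 1.17 ± 2.44 for *Calcb*, 0.83 ± 1.69 for *Slc5a7* and 0.075 ± 1.56 for *Isl1*, with adjusted p from 0.876 to 0.996 in edgeR. The median of all tested genes was -0.055. All 9 members overlapped between the strains, where 14.8% of tested genes did not. *Isl2* and *Phox2a* are in that count but were not among the tested genes. *Phox2a*, with no read in any WT library, could only overlap. This comparison and the one in OF1 mice share the OF1 WT libraries, so opposite signs in them are not separate results. The SEs of 1.44 to 2.82 on the log2 scale come from the fit that includes C572. With the 6 compared libraries only they were 0.588 to 1.87 in OF1 mice and 0.650 to 1.70 between the strains, and no member was called there either.

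**Figure D3:**
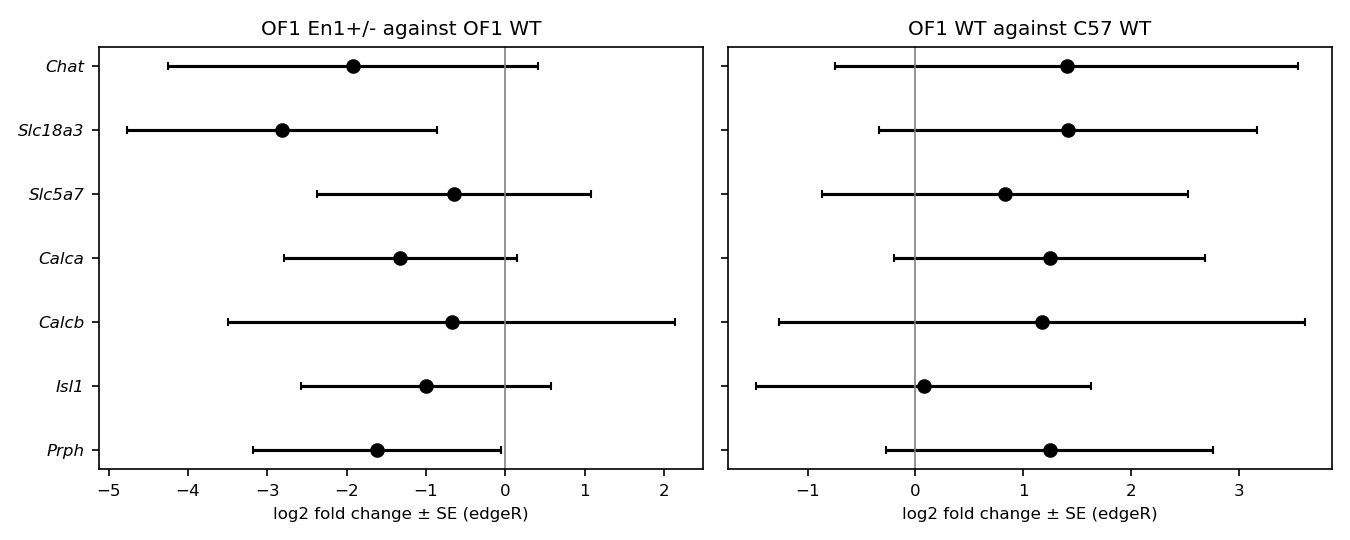
Log2 fold change with its standard error (edgeR, 12 libraries in 1 fit) of the 7 tested members, in OF1-*En1*+/- against OF1 WT mice (left) and in OF1 WT against C57 WT mice (right). The values lie between -2.82 and -0.65 on the left and between 0.075 and 1.42 on the right, and no member passed the threshold. *Calcb* entered the test only through C572.

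No other gene of acetylcholine handling was more than 4-fold above the other libraries in C572, and 2 were highest there. The list held 10 genes, among them the esterases *Ache* and *Bche*, which break acetylcholine down, and enzymes and transporters of choline. *Bche* was at 699 in C572 and at most 422 elsewhere, and the choline transporter *Slc44a1* at 716 and at most 560, both chosen for mention after their values were seen. *Ache* was at 19827 in C572 and between 14435 and 29350 elsewhere, so it was read at a high level in every library. *Slc10a4*, a vesicular transporter of cholinergic and monoaminergic neurons, was at 5686 in C572 and at 51.1 to 31640 elsewhere, highest in C572S. The enzymes of phosphatidylcholine synthesis *Pcyt1a* (2494 in C572, 1134 to 2623 elsewhere) and *Pcyt1b* (1990 in C572, 826 to 2634 elsewhere) were inside the range of the other libraries. The summed level of the list was 548 TPM in C572 and 349 to 1610 TPM in the other libraries.

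Of 9 genes for CGRP receptors and related peptides 0 were more than 4-fold above the others in C572. *Ramp1*, which joins the calcitonin receptor-like receptor to form the CGRP receptor, was at 5675 in C572 and 1675 to 4002 elsewhere. *Ramp2* was at 1165 (540 to 1416 elsewhere) and *Crcp*, the CGRP receptor component protein, at 1806 (1488 to 2344 elsewhere). *Ramp3* was low in C572, at 119 against 76.7 to 6842. The genes of the ligands were thus high in that library, while no gene of their receptors was more than 4-fold above the other mice.

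Of 13 partners and neighbours of the Isl and Phox2 factors in motor neurons, 5 were more than 4-fold above the others in C572. Among them *Tbx20*, *Lhx4*, *Nkx6-1* and *Tbx2* were chosen for mention after their values were seen. *Tbx20*, a T-box factor of cranial motor neurons, had 542 reads in C572 and 1 read elsewhere, in SWB. *Lhx4*, *Nkx6-1* and *Tbx2* were at 235, 164 and 108 in C572 and at most at 7.08, 4.72 and 24.9 elsewhere. *Mnx1*, a factor of spinal somatic motor neurons, had no read in any library. The widely expressed cofactors *Ldb1* (348 in C572, 356 to 676 elsewhere), *Ldb2* (1141, 290 to 2505) and *Lmo4* (2498, 230 to 2211) and the G-protein regulator *Rgs4* (13450.0, 2061 to 12354) did not stand apart in this way.

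Of 9 neurofilament and intermediate filament genes, 3 were more than 4-fold above the others in C572, all neurofilament subunits. *Nefl*, the light subunit, was at 347540.2 in C572 and 26401 to 75763 elsewhere, and *Nefm*, the medium subunit, at 145977 against 2047 to 13274. *Nefh*, the heavy subunit, chosen for mention after its values were seen, was at 12600.3 against 763 to 3102. *Ina*, α-internexin, was at 6704 against 4868 to 7625, and *Dst*, dystonin, at 4211 against 2042 to 3652. The whole list summed to 5255 TPM in C572 and 420.4 to 1190.1 TPM in the other libraries. In both tested comparisons 0 genes of these 4 lists were called by edgeR (0 and 1.03% of all tested genes). DESeq2 called 0 in acetylcholine handling, CGRP receptors and filaments, beside 202 of 18017 genes in OF1 mice and 456 between the WT strains. Among the Isl and Phox2 partners it called 1 in OF1-*En1*+/- against OF1 WT and 2 in OF1 WT against C57 WT mice. They were *Gata3* in both, and *Ldb2* between the strains, and 4 of the 11 tested genes had no adjusted p in it. *Gata3*, named because it was called, was at 171 in C572. Elsewhere it had a median of 5.28 and reached 1816 in SW22. Its log2 fold changes in edgeR were 12.6 ± 4.95 (SE) and -8.445 ± 5.22, with adjusted p of 0.527 and 0.737.

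Markers of 13 cell types were set beside these levels, and their part in the result was not tested. Counts of list genes highest in C572 have no share of all genes beside them, because it was not computed. Genes more than 4-fold above all other libraries in C572 were 0.549% of all tested genes. The lists were chosen with earlier results known, so nothing is read from these counts, here or in the lists above and below. The cranial motor neuron markers summed to 2685 TPM in C572 and 55.5 to 1484 TPM elsewhere, highest in C572S, and 11 of 14 were highest in C572, 6 of them more than 4-fold. *Chodl*, a marker of fast motor neurons, was at 36899 against at most 1739, and *Sncg*, γ-synuclein, at 30185 against at most 2675. *Gfra1*, the GDNF receptor, was at 9830 in C572 but at 19054 in C572S, and dopaminergic neurons also use it.

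Markers of serotonergic and noradrenergic neurons were also high in C572, at 130 TPM against 0.146 to 22.3, with 5 of 5 highest there and 2 more than 4-fold. *Tph2*, which makes serotonin, was at 7482 against at most 76.2, *Slc6a4*, its transporter, at 2123 against at most 1451 in SWB, and *Dbh* of noradrenergic neurons at 107 against at most 51.4. The oligodendrocyte markers summed to 2953 TPM against 198 to 2154 elsewhere, all 5 highest in C572, with *Mbp* at 100946 against at most 63869. The list of peripheral myelin summed to 244 TPM against 9.97 to 62.8, of which *Pmp22* alone gave 240 TPM. *Prx*, which encodes periaxin of the myelin of peripheral nerves, was at a normalized count of 47.0 in C572 and 3.20 to 130 elsewhere, so it did not stand apart there.

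The summed levels of the other lists were not higher in C572, while some single markers were. Of these, *Pou4f1*, *Scn11a* and *Ucn* were chosen for mention after their values were seen. *Pou4f1*, in the habenular and red nucleus lists, was at 352 in C572 and at most 9.44 elsewhere. *Scn11a*, in the peripheral sensory list, was also more than 4-fold above all other libraries there. *Ucn*, in the Edinger-Westphal list, had 13 reads in C572 and 0 elsewhere. Forebrain cholinergic markers summed to 3.40 TPM (1.04 to 40.0 elsewhere), with *Lhx8* at 0 beside a median of 0 and at most 195 elsewhere. Habenular and interpeduncular markers summed to 32.9 TPM (13.1 to 227), with *Chrnb3* at 0 beside a median of 6.53 and at most 10271 elsewhere. Edinger-Westphal markers summed to 30.4 TPM (36.1 to 1119) with *Cartpt* at 170 against up to 22160 in SW7. Peripheral sensory markers summed to 34.8 TPM (8.05 to 728), skeletal muscle to 10.6 TPM (13.3 to 27.1) and endothelial and mural cells to 88.6 TPM (45.6 to 135). Dopaminergic markers summed to 146 TPM (25.2 to 9925, highest in C572S), red nucleus and midbrain glutamatergic markers to 28.2 TPM (28.8 to 272), and subthalamic and posterior hypothalamic markers to 40.6 TPM (28.4 to 1528). No gene of the 13 marker lists was called by edgeR in either tested comparison. DESeq2 called 1 peripheral sensory and 2 subthalamic list genes in OF1-*En1*+/- against OF1 WT mice, *Tac1* being in both lists. Between the WT strains it called *Gfra1* and *Slc18a2*, both highest in C572S. *Slc18a2* was at 61521 there, beside a median of 602 over all libraries but C572. The adjusted p in edgeR was 0.334 for *Gfra1* and 0.48 for *Slc18a2*. Of 18017 genes, DESeq2 called 202 in OF1 mice and 456 between the WT strains. Some list genes, 5 of 9 dopaminergic markers among them, had no adjusted p in DESeq2.

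**Figure D4:**
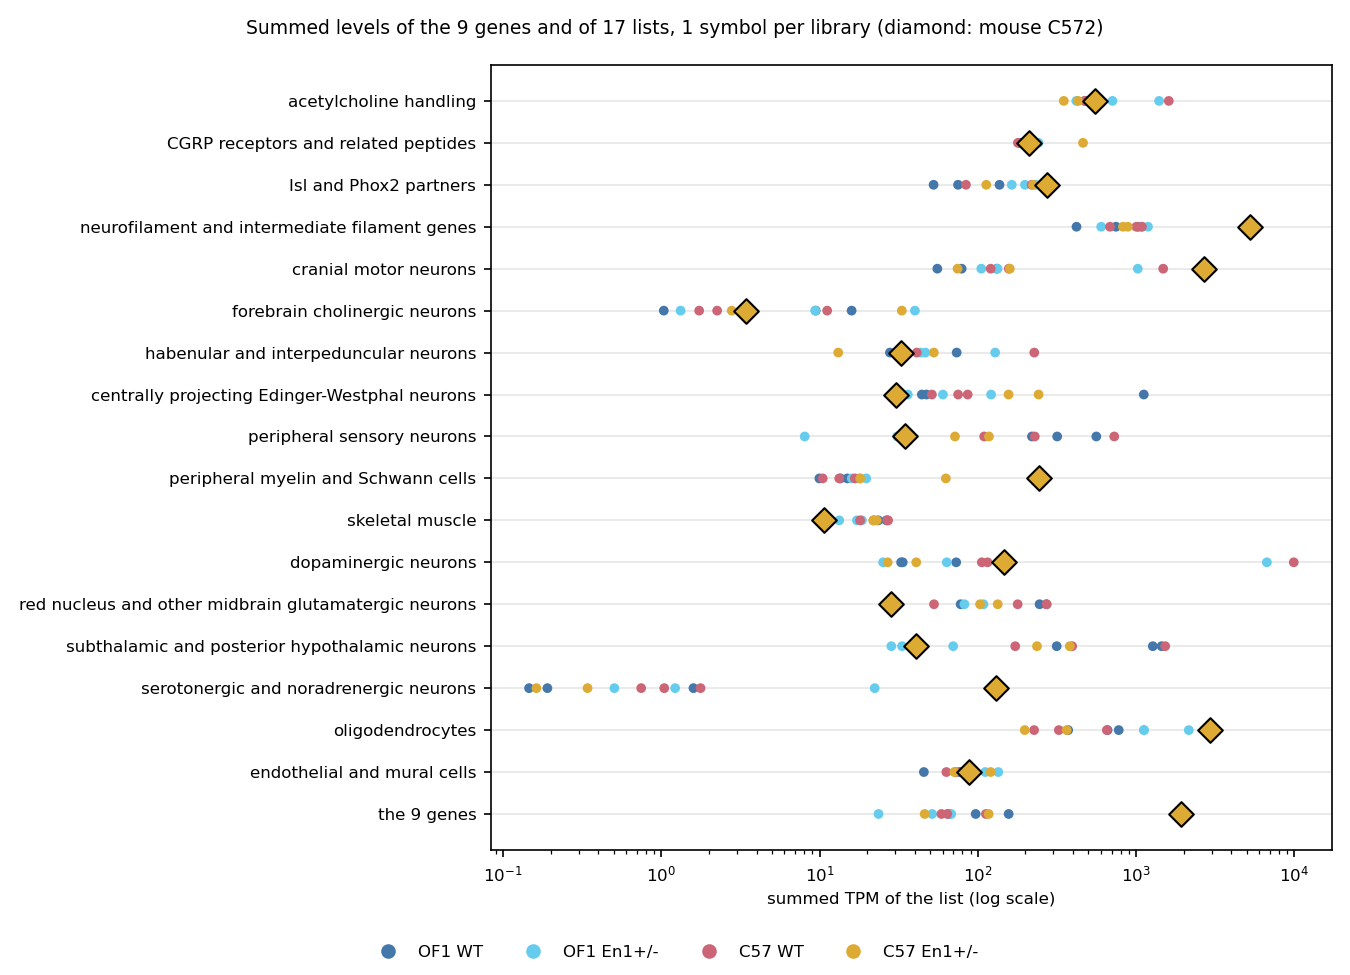
Summed TPM (log scale) of 17 gene lists and of the 9 genes, 1 symbol per library coloured by group, with C572 as a diamond. C572 lies above all other libraries for the 9 genes, the filament genes, cranial motor neurons, peripheral myelin, oligodendrocytes, and serotonergic and noradrenergic neurons, and just above them for the Isl and Phox2 partners (274 against at most 271 TPM).

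The protein-coding genes whose log2 normalized counts were most like the mean of *Chat*, *Slc18a3* and *Slc5a7* over the 12 libraries were sought as a description, without a p. The libraries differ in depth and C572 sets most of the likeness. The 10 most alike included *Calcb* (Pearson r = 0.923), *Susd2* (0.901), *Abcb9* (0.901), *Vip* (0.887), *Calca* (0.876), *Fam177a2* (0.870), *Hs1bp3* (0.861), *Naprt* (0.853) and *Acly* (0.849). The trio and *Calcb* were chosen for their level in C572, so their likeness over the 12 libraries restates that choice. *Vip*, a neuropeptide, was at 4428 in C572 and at most 79.1 elsewhere, and *Acly*, which makes the acetyl-CoA that choline acetyltransferase uses, at 30542 against 6298 to 13236. *Fam177a2* was at 0 in all other libraries. Over the 11 libraries without C572 the r of *Calcb* was 0.657, of *Vip* 0.595, of *Calca* 0.554 and of *Acly* 0.471, none of the 10 stayed among the 10 most alike, and the closest gene was *Supt7l* (0.814). The same search for *Isl1*, chosen after seeing the data, gave other genes, led by *Inca1* (0.843), *Cflar* (0.834) and *Shisa2* (0.832), with r of 0.829, 0.818 and 0.823 without C572.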

How the data were processed

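RNA of 12 libraries, 3 per group, was analysed as deposited. The authors quantified transcripts of GENCODE M28 (GRCm39) with Salmon, with correction for GC content, from paired reads of SMART-Seq and Nextera libraries, which do not keep strand. The deposited files give estimated counts of reads per transcript, which need not be whole, and TPM, scaled by the authors for transcript length and depth. Here 139555 of 140790 transcripts matched a later GENCODE release of the same build by identifier. Estimated counts were summed over the transcripts of each gene and rounded, and TPM were summed. Counts were scaled with TMM factors to the geometric mean library. Genes whose normalized counts averaged 10 or more over the 12 libraries entered the robust quasi-likelihood test of edgeR 4.0.16 in R 4.3.3, with 1 mean per group in 1 fit of all libraries and Benjamini-Hochberg adjustment at 0.05. Scripts were tested on simulated data. DESeq2 1.42.0 was an alternative, as were other scaling factors, filters, length offsets and leaving out libraries. A prior of 2 was added before log2. Intervals of shares are 95% Wilson intervals.

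Each library came from 1 mouse, and litters are not given in the labels. The smallest p that an exact permutation of 3 against 3 mice allows is 0.10. Libraries of the same group all differed beyond sampling noise. The members and lists were chosen with earlier results of these data known. Apart from genes read to check the labels, genes named include the 9 members and up to 4 genes per list with the highest mean normalized count. Genes among the 10 most like the cholinergic trio, with or without C572, are also named. Others are said to have been chosen later or named because DESeq2 called them, or are at 0 in C572. Sequences are from GENCODE and from RefSeq (GRCm38.p6). Some genes of the lists are counted in them and are not reported here by name. No protein sequence was analysed here. Tables were made with Python, pandas, numpy, scipy and matplotlib.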

Additional observations from a re-analysis of the deposited data

How the results depend on the processing

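No member was called in either tested comparison under any alternative that gave it an adjusted p (DESeq2 gave one for *Isl1* alone), and of 277 fold changes of members recomputed 269 kept their direction and their side of the threshold. The smallest adjusted p of a member in any of them was 0.326 (edgeR), for *Prph* in OF1 mice without SW22, C572S and C572. The other 8 changed sign when 1 library was left out. In OF1-*En1*+/- against OF1 WT mice the log2 fold change then ranged from -2.32 to 1.499 for *Isl1* (positive without SW7), from -2.91 to 0.046 for *Chat* and -1.46 to 1.67 for *Slc5a7* (positive without SWG), and from -3.33 to 0.086 for *Calcb* (positive without SWB). In OF1 WT against C57 WT mice it ranged from -2.43 to 0.69 for *Isl1* (negative without SW7 and, at -0.35, without C5743), and from -0.55 to 2.00 for *Chat* and -1.48 to 1.37 for *Slc5a7* (negative without SWG). The number of all genes called in OF1 mice, 0, was 202 with DESeq2, 1 without SW22 and C572S, 2 without these and C572, which was chosen after seeing the data, and 0 to 3 with 1 library left out, the most without SW7. Between the WT strains 185 became 456 with DESeq2, 114 with the 6 compared libraries, 67 among protein-coding genes, 106 without SW22 and C572S, and 108 without these and C572. The causes were not tested. The members more than 4-fold above all other libraries in C572 numbered 7, and 8 without C572S, when *Isl2* joined them. At an unadjusted p under 0.05 in OF1 mice were 0 members, 1 with the 6 compared libraries or without C572 (*Slc18a3*), and 2 without SW22, C572S and C572 (*Slc18a3* and *Prph*). Of all genes, 1654 of 18017 were so in the main fit and 1586 of 16725 with the 6 compared libraries. Without C572 they were 1888 of 18002, and without SW22, C572S and C572 1866 of 18088. Nothing is read from the counts of members. All 90 recomputed differences between C57 groups stayed within 1 SD, but C572 itself sets that SD, and without C572 the difference went from 3.09 to -0.59 for *Calcb* and from 0.74 to -2.56 for *Chat*. No paired analysis was run, because each library came from 1 mouse and the labels give no litter or other pairing. *Isl2* and *Phox2a* had under 13 reads in every library but 1.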
